A study of Mus musculus with 6 samples.

Results

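Squamous epithelium is held together by desmosomes, anchored by hemidesmosomes and sealed by a cornified envelope. The genes described here are 32 of the 56980 genes in the count table: basal and squamous transcription factors, desmosome, cornified envelope and hemidesmosome genes, and several squamous surface genes, all other than keratins. They were taken by gene symbol with no filter on expression. The choice was made with the values of these libraries in view, those of control 1 in particular, so the levels below are a description. The RNA came from mouse lung tumours labelled as small cell lung cancer, taken about 4 months after virus was given, in a study that asked how loss of Keap1, a repressor of the stress-response factor NRF2, alters gene expression. The 2 groups were 3 Keap1 knockout QKO tumour samples and 3 control QKO tumour samples, so by title every sample carries the QKO background. The sample descriptions are short codes that begin with KP for the knockouts and QKO for the controls, so the shared background rests on the titles. The labels do not spell out QKO, name the alleles in it, give the age of the mice, state how Keap1 was inactivated, or tell whether each sample is from an animal of its own. The p-values therefore measure the spread between these samples, which was larger than sampling noise but may not be a spread between animals.

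In stratified epithelia such as skin and oesophagus, p63 keeps basal cells in their basal state. Desmosomes join neighbouring cells through desmogleins and desmocollins, which bind plakoglobin and plakophilins on the inside of the membrane, and desmoplakin ties that plaque to keratin filaments. As cells move up and differentiate, transglutaminase links involucrin, envoplakin, periplakin and small proline-rich proteins into a tough envelope, while integrin α6β4 and the epidermal laminin fix basal cells to the basement membrane. Normal lung has such basal cells in the larger airways, while plakoglobin, desmoplakin and integrin α6β4 are also made by simple epithelia.

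Reads counted on genes totalled 21801647, 22786776 and 23759892 in knockouts 1 to 3, against 20065069, 19881823 and 18731515 in controls 1 to 3, and levels are given as CPM, counts scaled to TMM-adjusted library totals. Keap1 itself stood at 67.5, 93.0 and 79.9 CPM in knockouts 1 to 3, against 78.4, 74.5 and 58.7 CPM in controls 1 to 3, and edgeR's quasi-likelihood test put the log2 fold change at 0.18 ± 0.20 (SE; adjusted p 0.564). An RNA level does not check how a gene was disrupted. The labelled cell type had its defining markers in a single library. The 10 neuroendocrine markers summed to between 51.2 and 189 CPM in the knockouts, against 112, 40.8 and 6219 CPM in controls 1 to 3. Neurod1, a neuroendocrine transcription factor among them, had no read in any knockout. So the libraries other than control 3 went against the label by these markers. The 7 markers of simple epithelium summed to between 5701 and 6958 CPM in the knockouts, against 6830, 4651 and 926 CPM in controls 1 to 3. The 6 airway basal cell markers, Trp63 among them, summed to between 5.71 and 94.8 CPM in the knockouts, against 6312, 45.6 and 18.9 CPM in controls 1 to 3. Control 1 thus stood alone in the basal sum, most of which was Krt5 and Krt14, at 2038 and 3368 CPM. It was the highest library for all 6 basal markers, and by at least 5 times for 4 of them. The others were closer: Ngfr had 34.1 CPM in control 1 and 16.6 CPM in control 3. Krt15 had 6.45 CPM in control 1 and 3.73 CPM in knockout 1. Control 3 was low in the summed markers of simple epithelium. The 6 fibroblast markers summed to between 375 and 1018 CPM in the knockouts, against 432, 33869 and 4938 CPM in controls 1 to 3. Col1a1 and Col1a2 made up most of the control 2 sum, at 20424 and 12074 CPM. Pdgfra and Lum were also highest in control 2. Col3a1 and Dcn were instead highest in control 3, at 2291 and 238 CPM, against 998 and 57.1 CPM in control 2. The 6 leukocyte markers summed to between 68.0 and 89.4 CPM in the knockouts, against 201, 393 and 62.3 CPM in controls 1 to 3. Each control library thus stood apart in some of these markers, and the part of these differences in the values below was not tested. In RNA from whole tissue, fewer cells of a type and less RNA per cell cannot be told apart.

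Squamous and desmosome RNA was abundant in control 1, intermediate and even in the 3 knockouts, and lowest in control 3. Summed over the 32 genes, it came to 3649, 3158 and 3027 CPM in knockouts 1 to 3, against 11781, 2283 and 604 CPM in controls 1 to 3. The knockouts therefore lay between control 1 and control 2, and the groups overlapped, with means of 3278 ± 328 CPM in knockouts and 4889 ± 6027 CPM in controls (SD, n = 3 each). Control 1 held 3.23 times the sum of the next library, knockout 1. Control 1 was the highest of the 6 libraries for 27 of the 32 genes. Among the 29 genes with enough reads to be tested this was true of 24, beside 18.3% of all 17901 tested genes, and since the genes were chosen with that library in view nothing is read from the share. Of the other 5 genes, Dsg2, Dsc3 and Sprr1a were highest in knockout 1, and Pkp2 and Sfn in knockout 3. At the other end, control 3 was the lowest library for 21 of the 32 genes, 20 of the 29 tested, beside 31.4% of all tested genes.

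**Figure D1:**
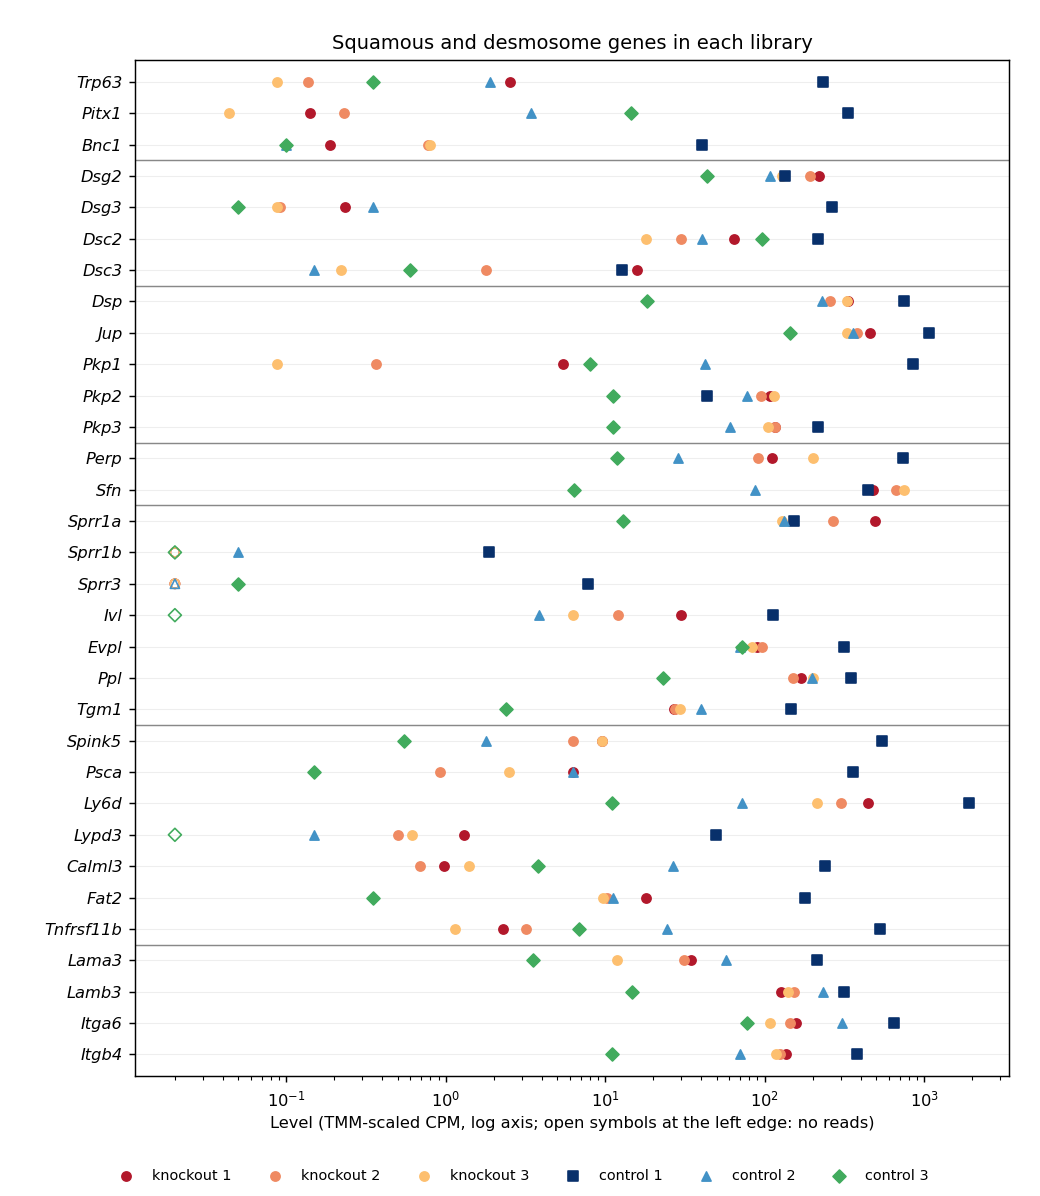
Level of each of the 32 genes (rows, grouped by role) in CPM on a log axis, one symbol per library, with open symbols at the left edge for no reads. Control 1 is the highest library for 27 genes, and 9 genes stay below 5 CPM in every knockout.

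The 32 genes ranged between those nearly absent outside control 1, such as Dsg3, and those present throughout, such as Jup. At least 5 CPM was reached in all 3 knockouts by 20 genes, in control 1 by 31, in control 2 by 22 and in control 3 by 18. In all 6 libraries 15 genes reached it, among them Dsg2, Dsc2, Dsp, Jup, Pkp2 and Pkp3 of the desmosome. Below 5 CPM in every knockout were 9 genes: Trp63, Pitx1, Bnc1, Dsg3, Sprr1b, Sprr3, Lypd3, Calml3 and Tnfrsf11b. Control 1 held at least 5 times the level of every other library for 13 of the 32 genes, 10 of the 29 tested, beside 0.693% of all tested genes. Just inside that limit stood Calml3 and Fat2, at 8.96 and 9.98 times the next library, and just outside it Ly6d, at 4.31 times.

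**Figure D2:**
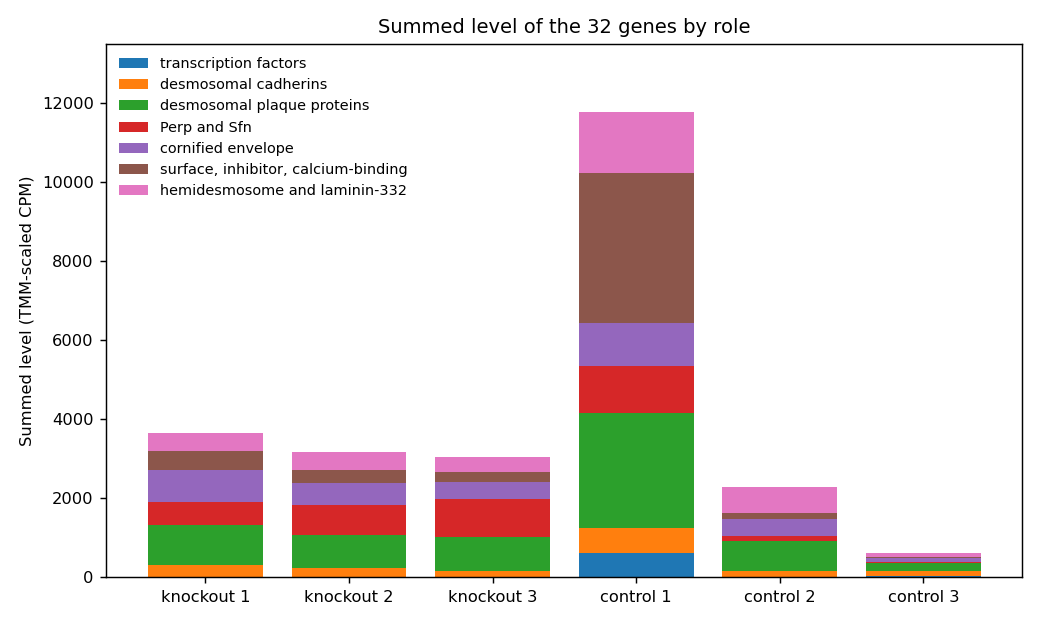
Summed level of the 32 genes in each library (CPM, stacked bars, colours for role groups), knockouts left of controls. The knockout bars reach between 3027 and 3649 CPM, and those of controls 1 to 3 reach 11781, 2283 and 604 CPM.

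The role groups differed in how far control 1 stood above the next library, by 40.4 times in the summed level of the transcription factors, 7.89 times for surface, inhibitor and calcium-binding genes, 2.87 times for plaque proteins, 2.34 times for hemidesmosome and laminin genes, 2.10 times for desmosomal cadherins, 1.34 times for the cornified envelope and 1.26 times for Perp and Sfn.

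The basal transcription factors were close to absent in the knockouts. Trp63 (ENSMUSG00000022510), which encodes p63, had 2.52, 0.137 and 0.0879 CPM in knockouts 1 to 3, against 231, 1.88 and 0.349 CPM in controls 1 to 3. Pitx1 (ENSMUSG00000021506), a homeobox factor of limb and oral epithelium, had 0.140, 0.229 and 0.0440 CPM in knockouts 1 to 3, against 331, 3.42 and 14.4 CPM in controls 1 to 3. Every knockout lay below every control for Pitx1, whereas for Trp63 knockout 1 stood above controls 2 and 3. Bnc1 (ENSMUSG00000025105), a zinc finger protein of basal keratinocytes, had 0.187, 0.778 and 0.791 CPM in knockouts 1 to 3, against 40.2, 0.0991 and 0.0996 CPM in controls 1 to 3. All 3 knockouts thus exceeded controls 2 and 3 for Bnc1, at levels under 1 CPM. For Pitx1 edgeR's quasi-likelihood test put the log2 fold change at -9.67 ± 2.27 (SE; adjusted p 0.0649). The knockout levels of Pitx1 rest on 3, 5 and 1 reads. Without control 1 its log2 fold change was -5.97 ± 0.97 (edgeR, adjusted p 0.0473), and Pitx1 was then the single gene of the 29 past the threshold. For Trp63 the log2 fold change of -6.41 ± 2.75 became -0.28 ± 1.58 without control 1, with adjusted p of 0.177 and 0.915 by the same test.

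Of the desmosomal cadherins, the broadly expressed Dsg2 was present in all libraries and the epidermal Dsg3 in control 1 alone. Dsg2 (ENSMUSG00000044393), desmoglein of simple and stratified epithelia, had 218, 193 and 128 CPM in knockouts 1 to 3, against 133, 108 and 43.4 CPM in controls 1 to 3. Knockouts 1 and 2 exceeded every control, while knockout 3 fell just short of control 1. Dsg3 (ENSMUSG00000056632), the desmoglein of basal keratinocytes and the pemphigus vulgaris antigen, had 0.233, 0.0916 and 0.0879 CPM in knockouts 1 to 3, against 264, 0.347 and 0.0498 CPM in controls 1 to 3. That is 5, 2 and 2 reads in the knockouts, against 5203, 7 and 1 in the controls, and the filter on low counts left Dsg3 untested. Dsc2 (ENSMUSG00000024331), the widely expressed desmocollin, had 63.8, 29.6 and 17.9 CPM in knockouts 1 to 3, against 216, 40.4 and 95.7 CPM in controls 1 to 3. Dsc3 (ENSMUSG00000059898), the desmocollin of basal layers, had 15.7, 1.79 and 0.220 CPM in knockouts 1 to 3, against 12.6, 0.149 and 0.597 CPM in controls 1 to 3. Dsc3 was thus high in a single library of each group, knockout 1 and control 1. The log2 fold change was 0.92 ± 0.45 for Dsg2, -1.66 ± 0.73 for Dsc2 and 0.40 ± 1.88 for Dsc3, with adjusted p between 0.185 and 0.902 by edgeR's quasi-likelihood test.

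The desmosomal cadherin genes lie side by side on 1 chromosome, in the order Dsc3, Dsc2, Dsc1, Dsg1c, Dsg1a, Dsg1b, Dsg4, Dsg3, Dsg2. Neighbours in this row differed in which libraries held their RNA. Dsc1 and Dsg4, of the uppermost epidermis and the hair, had no read in any knockout, against 4, 0 and 1 reads and 1, 0 and 0 reads in controls 1 to 3. Dsg1a had 14, 0 and 0 reads in knockouts 1 to 3, against 6, 139 and 0 reads in controls 1 to 3, so it was highest in control 2, whereas Dsg3 was highest in control 1 and Dsg2 in knockout 1. Dsg1a, Dsg1b and Dsg1c are close copies of each other, and how the counting shared reads between such copies is not stated in the labels.

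**Figure D3:**
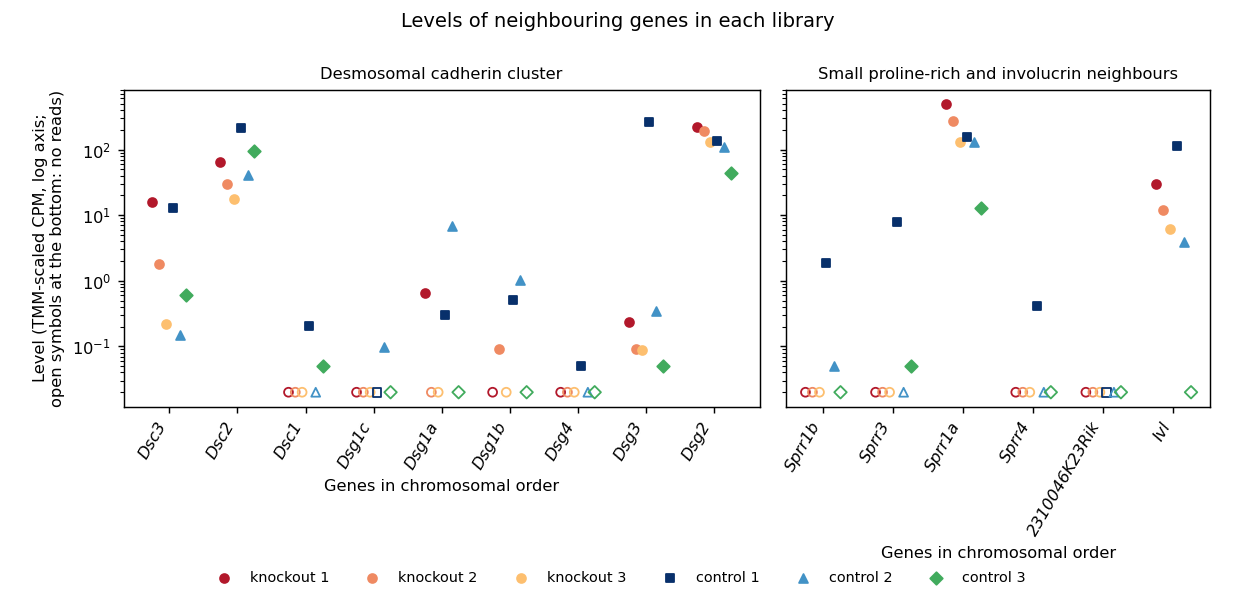
Level of each gene in each library (CPM, log axis) along the desmosomal cadherin row and the row holding Sprr1b, Sprr3, Sprr1a and Ivl, in chromosome order, one symbol per library, with open symbols at the bottom for no reads. Dsg2 lies between 43.4 and 218 CPM in all libraries while its neighbour Dsg3 passes 1 CPM in control 1 only.

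The desmosomal plaque genes were present in every library, apart from Pkp1. Jup (ENSMUSG00000001552), plakoglobin, had 454, 376 and 329 CPM in knockouts 1 to 3, against 1071, 356 and 144 CPM in controls 1 to 3. Dsp (ENSMUSG00000054889), desmoplakin, had 335, 258 and 328 CPM in knockouts 1 to 3, against 752, 228 and 18.3 CPM in controls 1 to 3. Both genes were even among the knockouts, highest in control 1 and lowest in control 3. Pkp1 (ENSMUSG00000026413), the plakophilin of stratified epithelia, had 5.46, 0.366 and 0.0879 CPM in knockouts 1 to 3, against 844, 41.9 and 8.07 CPM in controls 1 to 3. Its groups did not overlap. Pkp2 (ENSMUSG00000041957), the plakophilin of simple epithelia and heart muscle, had 108, 94.4 and 114 CPM in knockouts 1 to 3, against 43.3, 77.1 and 11.2 CPM in controls 1 to 3. Every knockout lay above every control for Pkp2, with means of 106 ± 10.2 CPM in knockouts and 43.9 ± 33.0 CPM in controls (SD, n = 3 each). Thus the plakophilins Pkp1 and Pkp2 were apart in opposite directions. Pkp3 (ENSMUSG00000054065), found in most epithelial desmosomes, had 117, 116 and 104 CPM in knockouts 1 to 3, against 217, 60.9 and 11.2 CPM in controls 1 to 3. By edgeR's quasi-likelihood test the log2 fold change was -7.24 ± 2.42 for Pkp1 (adjusted p 0.116) and 1.27 ± 0.64 for Pkp2 (adjusted p 0.231). Without control 1, edgeR gave -3.66 ± 1.71 for Pkp1 (adjusted p 0.206) and 1.27 ± 0.79 for Pkp2 (adjusted p 0.315). The sign for Dsp and Jup turned, to 1.32 ± 1.00 and 0.64 ± 0.43 without control 1, where all 6 libraries gave -0.12 ± 1.07 and -0.44 ± 0.69.

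Perp and Sfn, both known targets of the p53 family in epithelia, were high in all knockouts. Perp (ENSMUSG00000019851), a membrane protein needed for desmosome assembly, had 112, 90.0 and 201 CPM in knockouts 1 to 3, against 740.3, 28.4 and 11.8 CPM in controls 1 to 3. Sfn (ENSMUSG00000047281), stratifin, a checkpoint protein abundant in keratinocytes, had 476, 669 and 741 CPM in knockouts 1 to 3, against 443, 86.9 and 6.32 CPM in controls 1 to 3. The knockouts lay above controls 2 and 3 for both genes, and above control 1 as well for Sfn. Sfn averaged 629 ± 137 CPM in knockouts and 179 ± 233 CPM in controls (SD, n = 3 each), and edgeR put its log2 fold change at 1.81 ± 1.26 (adjusted p 0.361). Without control 1 the log2 fold change was 3.76 ± 1.18 for Sfn and 2.74 ± 0.58 for Perp (edgeR, adjusted p 0.107 and 0.0634).

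The cornified envelope genes split within a single row of neighbours, in which Sprr1b, Sprr3, Sprr1a and Ivl follow each other with Sprr4 and another gene between Sprr1a and Ivl. Their promoters are shown because these neighbours had such different levels in the same libraries. Each run is the 250 bases before the start site, from RefSeq on build GRCm38.p6, minus strand, read 5′ to 3′, with matches to TGANTCA (the AP-1 motif, the same on both strands) and TATAAA (the TATA box, searched on both strands) in capitals.
Sprr1b, chr3:92438780-92439029: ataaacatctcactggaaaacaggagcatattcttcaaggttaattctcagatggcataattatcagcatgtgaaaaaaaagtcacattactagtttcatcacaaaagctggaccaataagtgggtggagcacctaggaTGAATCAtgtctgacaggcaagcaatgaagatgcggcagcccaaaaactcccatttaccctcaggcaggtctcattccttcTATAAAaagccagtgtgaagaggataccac
Sprr3, chr3:92458721-92458970: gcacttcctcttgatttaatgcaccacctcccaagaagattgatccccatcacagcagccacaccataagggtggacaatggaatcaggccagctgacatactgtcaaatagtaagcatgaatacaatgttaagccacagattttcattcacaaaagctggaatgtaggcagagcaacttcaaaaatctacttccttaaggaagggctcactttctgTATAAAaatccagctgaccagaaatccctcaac
Sprr1a, chr3:92485882-92486131: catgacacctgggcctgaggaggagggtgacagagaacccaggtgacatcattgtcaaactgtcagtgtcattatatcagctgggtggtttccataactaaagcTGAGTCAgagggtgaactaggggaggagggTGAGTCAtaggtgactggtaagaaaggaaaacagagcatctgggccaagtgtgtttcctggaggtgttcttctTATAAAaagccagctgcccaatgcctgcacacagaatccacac
Ivl, chr3:92573736-92573985: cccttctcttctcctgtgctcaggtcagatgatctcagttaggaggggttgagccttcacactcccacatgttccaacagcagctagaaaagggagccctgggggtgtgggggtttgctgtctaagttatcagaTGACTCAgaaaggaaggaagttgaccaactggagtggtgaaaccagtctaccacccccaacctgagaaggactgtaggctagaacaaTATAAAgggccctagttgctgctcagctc
All 4 windows hold 1 TATA match. Sprr1a holds 2 AP-1 matches, starting at -146 and -116 from the start site, Sprr1b holds 1 at -111, Ivl holds 1 at -116, and Sprr3 holds none. An antioxidant response element letter pattern, TGACNNNGC on either strand, matched once, in Sprr1a, where it overlaps an AP-1 match. Of all 32851 promoter windows of that length in the table, 6.75% hold the AP-1 letters, 12.4% the TATA letters and 10.2% the antioxidant element letters. The table matched 12 of the 32 genes with 14 windows, of which 3 hold the AP-1 letters, 4 the TATA letters and 2, Sprr1a and Bnc1, the antioxidant element letters. These motifs were chosen after the sequences were seen, and a match describes letters only.

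In RNA, Sprr1a was present in every library, and the neighbouring Sprr1b and Sprr3 were not detected in any knockout. Sprr1a (ENSMUSG00000050359), a small proline-rich envelope precursor that is also induced by stress, had 492, 268 and 129 CPM in knockouts 1 to 3, against 153, 132 and 12.8 CPM in controls 1 to 3. Knockouts 1 and 2 exceeded every control, and knockout 3 lay just under control 2. Sprr1b (ENSMUSG00000048455) had 0 reads in each of the 3 knockouts, against 37, 1 and 0 reads in controls 1 to 3, and was at least 13.9-fold lower in the knockouts, taking a floor of 3 counts over the group. Sprr3 (ENSMUSG00000045539), the small proline-rich protein of oesophagus, had 0 CPM in each knockout, against 7.77, 0 and 0.0498 CPM in controls 1 to 3, and was at least 56.5-fold lower on the same floor. Nearly all of these control reads, 153 of 154 for Sprr3, came from control 1, and the bounds cover counting error only. Over 765 aligned bases the Sprr1a and Sprr1b transcripts are 74.9% identical, and their longest shared run is 20 bases.

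Ivl and the plakin and transglutaminase genes were present in all knockouts. Ivl (ENSMUSG00000049128), involucrin, had 29.9, 12.0 and 6.24 CPM in knockouts 1 to 3, against 112, 3.86 and 0 CPM in controls 1 to 3. Evpl (ENSMUSG00000034282), envoplakin, had 88.8, 96.7 and 83.2 CPM in knockouts 1 to 3, against 314, 70.3 and 71.5 CPM in controls 1 to 3. For both genes every knockout lay between control 1 and the other two controls. Ppl (ENSMUSG00000039457), periplakin, the partner of envoplakin, had 168, 150.3 and 200.2 CPM in knockouts 1 to 3, against 349, 196 and 23.0 CPM in controls 1 to 3. Tgm1 (ENSMUSG00000022218), the transglutaminase that links envelope proteins, had 26.9, 27.4 and 29.5 CPM in knockouts 1 to 3, against 145, 39.6 and 2.39 CPM in controls 1 to 3. Tgm1 was the most even of the 30 genes with reads in knockouts, with a highest-to-lowest ratio of 1.10 among them. Log2 fold changes for Sprr1a, Ivl, Evpl, Ppl and Tgm1 lay between -1.27 ± 1.97 (Ivl) and 1.58 ± 0.93 (Sprr1a), with adjusted p between 0.291 and 0.927 by edgeR's quasi-likelihood test.

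The squamous surface, protease inhibitor and calcium-binding genes were those that control 1 held most apart after the transcription factors, with 482, 322 and 237 CPM summed in knockouts 1 to 3, against 3803, 142 and 22.7 CPM in controls 1 to 3. Ly6d (ENSMUSG00000034634), a membrane-anchored protein of keratinocytes, had 443, 300.0 and 212 CPM in knockouts 1 to 3, against 1910.1, 71.9 and 11.1 CPM in controls 1 to 3. Spink5 (ENSMUSG00000055561), the skin protease inhibitor lost in Netherton syndrome, had 9.47, 6.23 and 9.58 CPM in knockouts 1 to 3, against 544, 1.78 and 0.548 CPM in controls 1 to 3. Both genes had every knockout above controls 2 and 3 and below control 1. Lypd3 (ENSMUSG00000057454), a membrane-anchored protein of migrating keratinocytes, had 1.31, 0.504 and 0.615 CPM in knockouts 1 to 3, against 49.1, 0.149 and 0 CPM in controls 1 to 3. Psca (ENSMUSG00000022598), a membrane-anchored protein of bladder and stomach epithelium, had 6.25, 0.916 and 2.51 CPM in knockouts 1 to 3, against 358, 6.29 and 0.149 CPM in controls 1 to 3. Fat2 (ENSMUSG00000055333), an atypical cadherin of keratinocytes and cerebellar granule cells, had 18.0, 10.3 and 9.67 CPM in knockouts 1 to 3, against 179.7, 11.1 and 0.349 CPM in controls 1 to 3. The knockouts lay between controls 2 and 3 for Psca and on both sides of control 2 for Fat2.

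Calml3 and Tnfrsf11b had every knockout below every control. Calml3 (ENSMUSG00000063130), a calmodulin-like protein of epithelia, had 0.979, 0.687 and 1.41 CPM in knockouts 1 to 3, against 238, 26.5 and 3.78 CPM in controls 1 to 3. Tnfrsf11b (ENSMUSG00000063727), osteoprotegerin, the secreted decoy receptor for RANKL, had 2.28, 3.16 and 1.14 CPM in knockouts 1 to 3, against 525, 24.4 and 6.82 CPM in controls 1 to 3. For Calml3 edgeR gave a log2 fold change of -6.44 ± 1.63 (adjusted p 0.0730), and -3.87 ± 0.91 without control 1 (adjusted p 0.0733). For Tnfrsf11b it gave -6.40 ± 1.84 (adjusted p 0.0874), and -2.82 ± 0.73 without control 1 (adjusted p 0.0834). Both signs thus held without control 1, and neither gene passed the threshold in either fit.

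The hemidesmosome and laminin genes were present in every library and control 1 was again the highest library for all 4. Itga6 (ENSMUSG00000027111), integrin α6, had 157, 143 and 108 CPM in knockouts 1 to 3, against 648, 307 and 77.5 CPM in controls 1 to 3. Itgb4 (ENSMUSG00000020758), its β4 partner in hemidesmosomes, had 135, 125 and 117 CPM in knockouts 1 to 3, against 381, 69.6 and 10.95 CPM in controls 1 to 3. The knockouts lay between controls 2 and 3 for Itga6 and between controls 1 and 2 for Itgb4. Lama3 (ENSMUSG00000024421), the α3 chain of the epidermal laminin, had 34.6, 31.4 and 11.8 CPM in knockouts 1 to 3, against 212, 57.4 and 3.54 CPM in controls 1 to 3. Lamb3 (ENSMUSG00000026639), its β3 chain, had 126, 153 and 140.2 CPM in knockouts 1 to 3, against 315, 231 and 14.7 CPM in controls 1 to 3. Both laminin genes had the knockouts between controls 2 and 3. The adjusted p of these 4 genes lay between 0.249 (Itga6, log2 fold change -1.34 ± 0.71) and 0.874 (Itgb4, -0.29 ± 1.08) by edgeR's quasi-likelihood test. Lamb3 overlaps the protein-coding genes Hsd11b1 and G0s2 in the annotation, and 6 of the 32 genes (Pitx1, Dsg2, Tgm1, Lypd3, Lama3 and Lamb3) have an annotated antisense gene. Whether counting used strand is not stated in the labels, so reads of such partners cannot be told apart.

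Set against the controls, none of the tested genes among the 32 passed the test of genotype, and the filter on low counts left Dsg3, Sprr1b and Sprr3 untested. By edgeR's quasi-likelihood test, adjusted by the Benjamini-Hochberg method over all 17901 tested genes, 0 of the 29 tested genes had an adjusted p below 0.05, beside 4.31% of all tested genes (2.42% called higher and 1.89% called lower in the knockout). Adjusted p ran between 0.0649 (Pitx1) and 0.951 (Dsp). At an unadjusted p below 0.05 there were 4, Pitx1, Pkp1, Calml3 and Tnfrsf11b, beside 30.7% of all tested genes, and at an adjusted p below 0.1 there were 3, Pitx1, Calml3 and Tnfrsf11b, beside 17.4%. DESeq2 gave an adjusted p to 22 of the 29. The 7 without one were Lypd3, Bnc1, Perp, Psca, Ly6d, Trp63 and Spink5, all highest in control 1. It called Pitx1, Pkp1, Calml3 and Tnfrsf11b, all lower, beside 25.9% of all genes, and limma voom called 0, beside 5.96%. These 4 were also the genes with every knockout below every control, beside 19.1% of all tested genes, and Pkp2 and Sfn those with every knockout above, beside 21.5%. In total, 6 of the 29 had groups that did not overlap, beside 40.7% of all tested genes. The authors' deposited table lists 23 of the 32 genes, and lacks Dsg3, Sprr3 and the same 7 that DESeq2 left without an adjusted p. In it 4 genes had an adjusted p below 0.05, beside 17.8% of its genes. Their log2 fold changes were -9.73 for Pitx1, -7.25 for Pkp1, -6.45 for Calml3 and -6.40 for Tnfrsf11b.

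The fold changes were fitted with and without control 1. The genes were chosen with the level of control 1 in view. Where control 1 was the highest control, the fold change had to move up without it, and the values are a description. Pkp2, the gene highest in control 2 among controls, stayed at 1.27. Of the 29 tested genes, 23 had a negative and 6 a positive log2 fold change, with a median of -1.16, beside a median of -0.08 over all tested genes. The order control 1 above control 2 above control 3 held for 25 of the 32 genes, 23 of the 29 tested, beside 23.1% of all tested genes. Without control 1, 21 were positive and 8 negative, with a median of 1.15, beside a median of -0.06 over all genes in that fit, and the sign turned for 15 of the 29. In that fit 1 of the 29 genes, Pitx1, passed edgeR's test, beside 3.91% of all genes. Every knockout then lay above both remaining controls for 13 genes, beside 28.3% of all tested genes, namely Bnc1, Pkp2, Pkp3, Dsg2, Dsp, Perp, Sfn, Ivl, Evpl, Spink5, Ly6d, Lypd3 and Itgb4, and below both for 4, beside 25.7%. For 10 of the 13 the knockouts lay between control 1 and the other controls. Without control 3, edgeR's test called 5 genes, all lower in the knockout (Calml3, Itga6, Lamb3, Pitx1 and Tnfrsf11b), beside 17.2% of all genes, with a median log2 fold change of -1.72. The limma voom fit, which compares mean log levels where edgeR compares mean levels, gave a positive median of 0.37 with all 6 libraries, and 18 positive and 11 negative values.

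**Figure D4:**
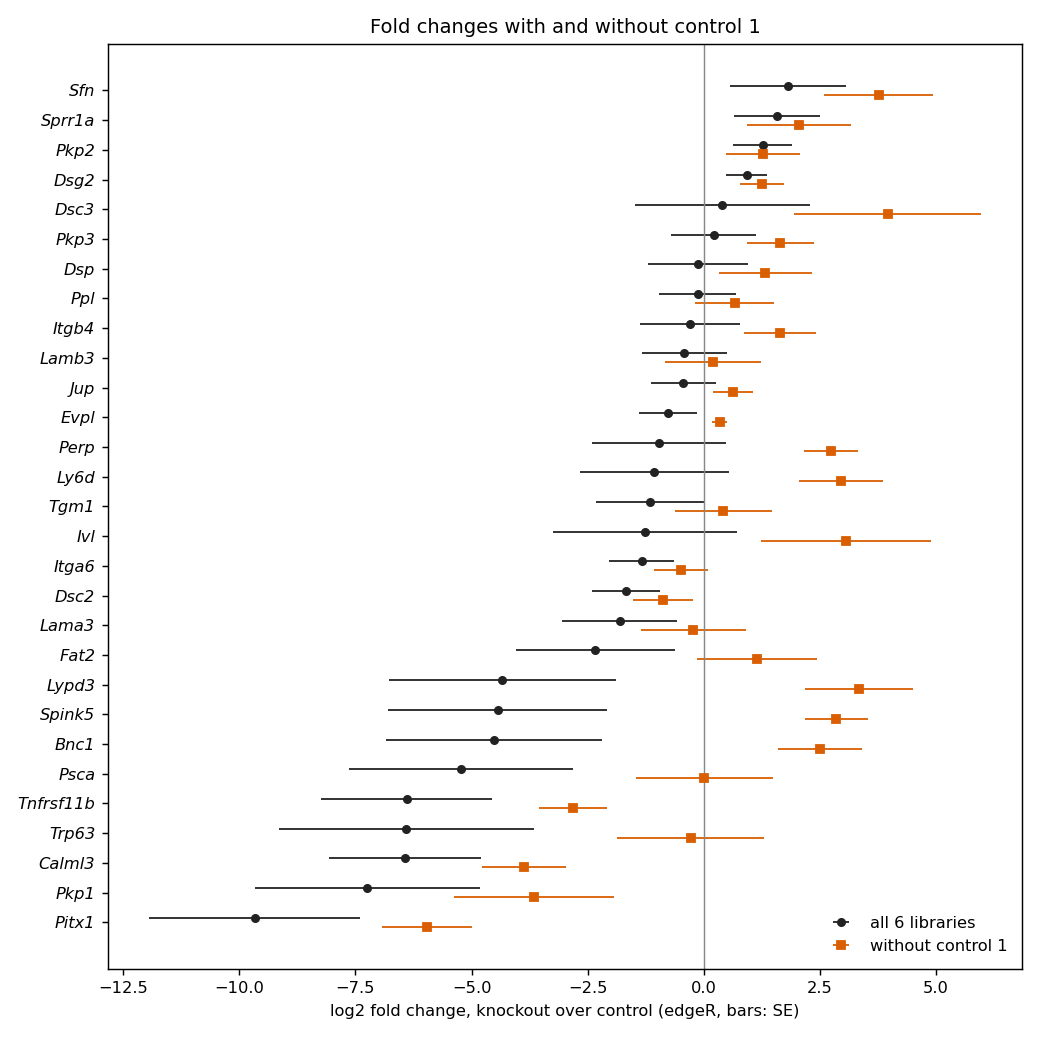
Log2 fold change, Keap1 knockout over control, of the 29 tested genes with its standard error from edgeR's fit, with all 6 libraries and again without control 1. Values of 15 genes change sign without control 1, whereas Trp63, Pitx1, Pkp1, Dsc2, Calml3, Lama3, Itga6 and Tnfrsf11b stay negative.

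The knockouts varied among themselves by different amounts from gene to gene. Taking the coefficient of variation (SD over mean) over the 3 libraries of a group, the median was 0.367 over knockouts and 1.37 over controls for the 30 genes with reads in knockouts. It was lower over knockouts in 29 of the 29 tested genes, beside 82.8% of all tested genes. A gene chosen for a high level in control 1 has a large spread over controls by that choice, so nothing is read from this count. The least even among knockouts were Dsc3, Pkp1 and Trp63, for which the highest knockout held 71.5, 62.1 and 28.6 times the lowest, followed by Psca at 6.82, Pitx1 at 5.21, Ivl at 4.796, Bnc1 at 4.24, Sprr1a at 3.82 and Dsc2 at 3.57 times. The lowest knockout had 5 reads for Dsc3, 2 for Pkp1, 2 for Trp63, 1 for Pitx1 and 4 for Bnc1, so those ratios are imprecise. In Dsc3, Pkp1 and Trp63 the high library was knockout 1, which was the highest knockout for 18 of the 32 genes, 17 of the 29 tested, beside 36.2% of all tested genes. Knockout 1 also held the basal keratin Krt14 at 54.8 CPM, against 0.504 and 0.615 CPM in knockouts 2 and 3. The basal markers Aqp3 and Krt15 were likewise highest there among knockouts, at 29.1 and 3.73 CPM. Krt5 hardly set knockout 1 apart from knockout 2, at 4.38, 3.94 and 0.220 CPM in knockouts 1 to 3. Bnc1 was instead lowest in knockout 1, at 0.187 CPM, against 0.778 and 0.791 CPM in knockouts 2 and 3. The part of these differences in the level of Trp63, Dsc3 and Pkp1 was not tested. Control 1 held Krt14 at 3368 CPM.

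Of the other genes of these pathways, 3 passed edgeR's threshold, all lower in the knockouts. Tested were 4 desmosome, 11 hemidesmosome, 18 transcription factor, 15 cornified envelope, 24 surface, 9 keratin and 20 junction genes. Krt5 and Krt14 are listed under both surface genes and keratins. Among all tested genes edgeR called 4.31%, and it called 1.89% lower, so nothing is read from the count of 3. Pkp4, a plakophilin relative at cell junctions, was 1 of 4 tested other desmosome genes and fell to 73.7 ± 8.62 CPM in knockouts, against 201 ± 33.3 CPM in controls (SD, n = 3 each), with a log2 fold change of -1.45 ± 0.20 (edgeR, adjusted p 0.0326). Col7a1, the anchoring fibril collagen, was 1 of 11 other hemidesmosome and basement membrane genes and fell to 3.34 ± 0.983 CPM in knockouts, against 42.4 ± 18.8 CPM in controls, with a log2 fold change of -3.66 ± 0.45 (edgeR, adjusted p 0.0283). Sox2, a factor of airway basal cells and of neuroendocrine tumours, was 1 of 18 tested other transcription factors and had 3.54, 4.35 and 5.93 CPM in knockouts 1 to 3, against 188, 44.7 and 138 CPM in controls 1 to 3 (edgeR, log2 fold change -4.74 ± 0.61, adjusted p 0.0304). For all 3 every control lay above every knockout, and the control 3 level of Pkp4, 224 CPM, and of Sox2 was far above that of the knockouts. Pkp4, Col7a1 and Sox2 lost their calls when any knockout library was left out, where edgeR called at most 2 genes in all, and Col7a1 also without control 2, where its adjusted p was 0.0518 by edgeR.

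Genes of 4 other lists did not pass the test in either direction by edgeR. Of 43 other cornified envelope and differentiation genes 15 were tested, and the smallest p belonged to Flg, filaggrin, with a log2 fold change of 4.65 and an adjusted p of 0.0509, and to the protease gene Klk14, at -4.22 and 0.0845 by edgeR. Flg was low in every library, at 0.886, 2.47 and 0.835 CPM in knockouts 1 to 3, against 0.0508, 0 and 0.0996 CPM in controls 1 to 3. Of 24 tested other surface and secreted genes the smallest p belonged to Ngfr, the nerve growth factor receptor of basal cells, at -6.53 with an adjusted p of 0.0507, and to the secreted growth factor carrier Fgfbp1, at 2.63 and 0.0697 by edgeR. Of 9 tested keratins of stratified epithelium they were Krt10 at -1.12 and Krt6a at -10.63, with adjusted p of 0.111 and 0.117 by edgeR. Of 20 adherens and tight junction genes they were the claudin Cldn6 at 3.20 and Nectin1 at -1.67, with adjusted p of 0.116 and 0.144 by edgeR. The keratins summed to between 17.4 and 112 CPM in the knockouts, against 9728, 109 and 25.6 CPM in controls 1 to 3, while adherens and tight junction genes summed to between 4580 and 5312 CPM in the knockouts, against 5899, 5173 and 1569 CPM in controls 1 to 3. The summed RNA of these keratins of stratified epithelium was thus high in control 1 alone, and the summed junction RNA of general epithelium was low in control 3 alone.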

How the data were processed

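Messenger RNA of 3 Keap1 knockout and 3 control samples was sequenced. The deposited count table holds raw whole-number read counts per Ensembl gene. Reads were aligned with STAR to mm39, per the submitters' processing notes. The sources used here do not give the counter, its annotation, its use of strand or how it treated reads that match several genes. DESeq2 made the authors' deposited table of their comparison, per the submitters' processing notes, and the table holds, per the file headers, a mean normalized count (a signal), log2 fold changes with errors, a Wald score and p-values. From it only log2 fold changes and adjusted p-values were used.

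Symbols came from a name table that paired 52073 of the 56980 identifiers. Genes were filtered with filterByExpr, scaled by TMM and tested two-sided in R 4.3.3 with edgeR 4.0.16 (quasi-likelihood test, robust, genotype as the only term), with Benjamini-Hochberg adjustment over all 17901 tested genes and a threshold of 0.05. The step was checked on simulated counts. CPM are counts per TMM-adjusted total, with n = 3 per group. Library totals ran from 18731515 to 23759892 reads, and mitochondrial genes took 0.981% to 1.41% of them. Bounds against 0 reads use 3 counts over the group. No 2 libraries agreed within sampling noise. Alternatives were scaling by RLE or upper quartile, no filter, 1 CPM in 3 samples, DESeq2 1.42.0, limma voom (3.58.1) with and without a spread per genotype, an adjusted p below 0.1, the sample number as a block, and each sample left out.

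All 32 genes are given, with CPM per library where any reached 5 CPM and reads otherwise. Of the 7 lists of other genes, up to 4 past the threshold are named, or the 2 with the smallest p. The genes, the lists and the 12 sets of cell type markers were chosen with earlier results of these data known. Krt14 and the airway basal markers given beside it were named after their values were seen. Promoters and gene order come from RefSeq and an annotation on GRCm38, an earlier build than mm39, and no coordinate was carried between builds. Marker sets not in the report are given in the closing section. Results for some genes are left out here.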

Additional observations from a re-analysis of the deposited data

How the results depend on the processing

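RLE and upper-quartile scaling tested 29 of the 32 genes and the stricter filter 27. All 3 kept the sign of every one of the genes they tested and kept the count of called genes at 0. Among all genes the count of 771 became 465 with no filter, 4642 with DESeq2 and 3117 at an adjusted p below 0.1, and ranged from 0 to 3209 with 1 library left out. Of the 32 genes, DESeq2 called 4, an adjusted p below 0.1 gave 3, and leaving out 1 library gave 0 to 5. Of the other genes of the pathways, 3 were called by edgeR, 18 by DESeq2, 5 by limma voom and 5 by limma voom with a spread per genotype, 8 at an adjusted p below 0.1, and 0 to 24 with 1 library left out. The median log2 fold change ranged from -1.72 to 1.15 with 1 library left out. The ratio of control 1 to the next library in summed level, 3.23, became 3.29 under RLE scaling and 3.08 without Ly6d.

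Signs turned for 12 genes with limma voom, which compares mean log levels. With limma voom, and with limma voom and a spread per genotype, the log2 fold changes were 1.06 and 1.06 for Dsp, 0.012 and 0.012 for Jup, 1.01 and 1.02 for Perp, 2.56 and 2.56 for Ivl, 0.56 and 0.56 for Ppl, 0.028 and 0.031 for Spink5, 0.23 and 0.23 for Tgm1, 1.41 and 1.41 for Ly6d, 0.37 and 0.37 for Lypd3, 0.43 and 0.43 for Fat2, 0.45 and 0.45 for Lamb3, and 0.92 and 0.92 for Itgb4. The deviations of same-numbered samples correlated at 0.0176, 0.000120 and 0.0507, so the numbers were not taken to pair samples. With the sample number as a replicate block, 0 genes were called in all, 0 of the 32 and 0 of the other genes of the pathways, and the median was 0.38. The block gave 0.82 for Dsp, 0.016 for Jup, 1.27 for Perp, 1.61 for Ivl, 0.40 for Ppl, 0.93 for Spink5, 1.64 for Ly6d, 0.38 for Lypd3, 0.052 for Fat2, 0.25 for Lamb3, 0.89 for Itgb4 and 0.58 for Bnc1.

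Leaving out 1 library gave ranges that crossed 0 for 17 genes: -5.09 to 2.50 for Bnc1, -0.31 to 1.65 for Pkp3, -2.13 to 3.96 for Dsc3, -0.67 to 1.32 for Dsp, -0.88 to 0.64 for Jup, -1.52 to 2.74 for Perp, -2.06 to 3.06 for Ivl, -1.10 to 0.34 for Evpl, -0.66 to 0.67 for Ppl, -5.01 to 2.85 for Spink5, -6.12 to 0.0090 for Psca, -1.72 to 0.42 for Tgm1, -1.64 to 2.95 for Ly6d, -4.92 to 3.35 for Lypd3, -2.91 to 1.15 for Fat2, -0.96 to 0.20 for Lamb3 and -0.84 to 1.65 for Itgb4. For 15 genes the sign turned without control 1. Depth limits the lowest genes: Sprr1b, Sprr3, Dsg3 and Pitx1 had at most 5 reads in any knockout.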

Other observations

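Of the 12 sets of cell type markers, 2 had genes past edgeR's threshold between the genotypes, all higher in the knockouts. The genes were 1 of 4 tested club cell markers and 2 of 3 tested mesothelial markers. Among all tested genes edgeR called 4.31%, and it called 2.42% higher. These sets are named for their calls and the other sets had none, so nothing is read from the shares. Scgb3a2, a secretoglobin of club cells, rose to 194, 245 and 415 CPM in knockouts 1 to 3, against 10.9, 27.8 and 6.12 CPM in controls 1 to 3 (edgeR, adjusted p 0.0391). The 4 club cell markers summed to between 2216 and 6126 CPM in the knockouts, against 1740, 1685 and 207 CPM in controls 1 to 3. Scgb1a1 made up most of the knockout sums, at 1574, 3501 and 5331 CPM in knockouts 1 to 3. Scgb3a1 and Cyp2f2 hardly differed, with log2 fold changes of 0.20 ± 0.53 and 0.02 ± 0.94 (edgeR, adjusted p 0.825 and 0.988). Cyp2f2 was highest in control 1, at 540 CPM, so the club cell markers did not move alike. Upk3b, a mesothelial membrane protein gene, rose to 79.1, 73.1 and 64.7 CPM in knockouts 1 to 3, against 0.355, 0.941 and 0 CPM in controls 1 to 3 (edgeR, adjusted p 0.0362). Lrrn4, another mesothelial gene, rose to 1.26, 3.34 and 2.99 CPM in knockouts 1 to 3, against 0.0508, 0.198 and 0.0996 CPM in controls 1 to 3 (edgeR, adjusted p 0.0377). Msln, mesothelin, lay the other way, at 20.4, 32.5 and 36.7 CPM in knockouts 1 to 3, against 46.6, 82.3 and 66.9 CPM in controls 1 to 3 (edgeR, log2 fold change -1.13 ± 0.32, adjusted p 0.0855), so the mesothelial markers did not share a direction. The 4 mesothelial markers summed to between 101 and 110.3 CPM in the knockouts, against 47.2 to 83.6 CPM in controls. All 3 calls were lost when control 1 or any knockout library was left out, and that of Lrrn4 also without control 2.

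The remaining sets had no gene past the threshold by edgeR. The 5 alveolar type 2 markers summed to between 1364 and 3916 CPM in the knockouts, against 599, 973 and 171 CPM in controls 1 to 3. The 5 alveolar type 1 markers summed to between 262 and 453 CPM in the knockouts, against 426, 707 and 91.0 CPM in controls 1 to 3. Ciliated cell markers summed to between 32.7 and 42.7 CPM in the knockouts, against 45.0 to 143 CPM in controls. Endothelial markers summed to between 104 and 177 CPM in the knockouts, against 80.4 to 283 CPM in controls, and cardiac muscle markers to between 8.75 and 44.1 CPM in the knockouts, against 9.36 to 28.8 CPM in controls.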
